A study of Homo sapiens with 38 samples.

Results

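The SR proteins and the heterogeneous nuclear ribonucleoproteins (hnRNPs) are the main families of RNA-binding proteins that choose splice sites. Their genes were found in the table of deposited expression values by symbol: SRSF followed by a number, or HNRNP followed by letters and an optional number. Symbols of pseudogenes and symbols with a hyphen were left out. The rule found 31 genes of 25504 symbols that occurred once, 12 SRSF genes and 19 HNRNP genes. Of the 31, 30 had a mean of at least 1 FPKM (fragments per kilobase of transcript, scaled to the mapped fragments of the library) over the 8 libraries, as did 10865 genes in all. The remaining gene, SRSF12, was listed at 0 in all 8 libraries.

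RKO, a human colorectal cancer cell line, was grown for 30 days or for 4 days with an LSD1 inhibitor, with either of its DNA-binding conjugates or with DMSO alone, and polyadenylated RNA was sequenced. The inhibitor was NCD38, and the conjugates were NCD38-β2P4 and NCD38-β2PIPP. All were used at 2 µM in 0.1% DMSO, and in the long treatment the medium was renewed every 5 days. LSD1 is the demethylase that removes methyl groups from lysine 4 of histone H3. In each conjugate NCD38 is joined to a pyrrole-imidazole polyamide, a small molecule that binds the minor groove of DNA: the polyamide of NCD38-β2P4 recognises runs of 6 A or T bases, and that of NCD38-β2PIPP recognises CG with 2 A or T bases on each side. Each of the 8 conditions had 1 library, and no library had a replicate of its own treatment and day. The 2 days also differ in everything else that the libraries of a day share, and none of this can be told apart from the length of treatment.

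SR proteins carry RNA recognition motifs and a tail rich in arginine and serine. They bind enhancer sequences in exons and recruit the splicing machinery. Many hnRNPs bind silencer sequences, and several oppose SR proteins at the same exons. Both families are expressed in nearly all cells, and many of their genes adjust their own level through exons that send the transcript to decay.

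The libraries held an estimated 12900000 to 23400000 fragments, judged from the FPKM of genes seen with a single fragment. In the NCD38 library of day 4 this estimate was 13500000 with a second peak at 6760000, so that its counting intervals may be too narrow, and that library had the fewest genes above 0, 14288 against 14800 to 15842 in the others. Of the epithelial and colonic markers, KRT18 was at 76.2 to 121 FPKM, KRT8 at 6.58 to 19.0 and CDX2 at 7.48 to 11.6. CDH1 was at 0.0642 or less and VIL1 was listed at 0 in all libraries. EPCAM was at 3.94 to 6.53 FPKM on day 30 and at 0.0922 to 0.867 on day 4. Of the markers of other cell types, PTPRC, PECAM1 and DCN were listed at 0 and COL1A1 was at 0.0129 or less. In RNA from bulk culture, fewer expressing cells and less RNA per cell cannot be told apart.

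Promoter sequences are shown for genes picked by their day 4 ratios or by matches to the sequence that the polyamide of NCD38-β2PIPP recognises. HNRNPH2 and SRSF11 were the members at least 2-fold above DMSO with both conjugates on day 4, and SRSF1 had the most CG sites of the members' promoters. The sequences are from RefSeq on GRCh38.p14, run from 250 bases before to 50 bases after a start site, and were matched for 29 of the 31 symbols. Capitals mark every 6-base match to A or T only, or to CG with 2 A or T bases on each side. Both searches read the same on either strand, and overlapping matches of the A/T search merge into longer runs. HNRNPH2 lies at chrX:101407972-101408271 on the plus strand, SRSF11 at chr1:70221130-70221429 and at chr1:70205446-70205745 on the plus strand, and SRSF1 at chr17:58007197-58007496 on the minus strand.
HNRNPH2: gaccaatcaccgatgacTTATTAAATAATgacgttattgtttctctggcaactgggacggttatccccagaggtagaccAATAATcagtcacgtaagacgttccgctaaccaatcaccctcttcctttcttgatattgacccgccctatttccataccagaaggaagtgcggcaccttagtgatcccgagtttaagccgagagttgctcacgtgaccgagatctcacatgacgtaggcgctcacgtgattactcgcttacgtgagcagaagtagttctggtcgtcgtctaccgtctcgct
SRSF11, first start listed: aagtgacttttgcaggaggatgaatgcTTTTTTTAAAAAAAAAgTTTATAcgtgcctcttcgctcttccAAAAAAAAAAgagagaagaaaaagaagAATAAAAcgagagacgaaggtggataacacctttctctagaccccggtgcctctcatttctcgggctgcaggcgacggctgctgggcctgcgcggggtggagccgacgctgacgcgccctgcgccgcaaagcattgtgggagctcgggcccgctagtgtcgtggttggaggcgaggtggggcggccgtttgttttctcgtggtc
SRSF11, second start listed: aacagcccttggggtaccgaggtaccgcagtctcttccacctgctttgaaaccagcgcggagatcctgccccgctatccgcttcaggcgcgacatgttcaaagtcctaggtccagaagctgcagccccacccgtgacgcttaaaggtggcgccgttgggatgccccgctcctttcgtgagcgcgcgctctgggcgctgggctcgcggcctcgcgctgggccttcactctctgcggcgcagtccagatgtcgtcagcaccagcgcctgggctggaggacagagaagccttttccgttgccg
SRSF1: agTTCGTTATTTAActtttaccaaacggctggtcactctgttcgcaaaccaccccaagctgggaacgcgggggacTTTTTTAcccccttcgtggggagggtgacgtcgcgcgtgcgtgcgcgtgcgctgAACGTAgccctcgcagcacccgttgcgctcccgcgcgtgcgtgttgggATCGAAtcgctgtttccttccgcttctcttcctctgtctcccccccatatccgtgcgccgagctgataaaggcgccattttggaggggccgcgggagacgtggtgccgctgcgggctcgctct
The CG site occurred 3 times in the SRSF1 promoter and was not found in these windows of HNRNPH2 and SRSF11. Of the 29 members with a promoter in the table, 8 held the CG site and 19 held a run of 6 A or T bases. Counted over start sites, 10 of 42 member promoters (23.8%) held the CG site, against 15.9% of all 35116 promoters of the same length and 17.2% of the 10618 promoters of expressed genes. A run of A or T bases was in 54.8% of member promoters, 61.2% of all promoters and 46.7% of those of expressed genes. These are matches of letters, and binding was not measured in the data used here.

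The members spanned a wide range of levels, and the order of the genes differed between the days. Values below are FPKM in the order DMSO, NCD38, NCD38-β2P4 and NCD38-β2PIPP. In sum, the SRSF genes reached 624, 705, 680.4 and 638 on day 30 and 452, 315, 533 and 591 on day 4. The HNRNP genes summed to 2177, 2515, 2386 and 2017 on day 30 and to 1496, 1025, 1699 and 1953 on day 4. In both families the lowest sum was that of the NCD38 library of day 4.

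SRSF9 had the highest mean of the SR genes. It was at 104, 147, 125 and 113 FPKM on day 30 and at 199, 150.4, 213 and 218 on day 4, so that every day 4 library lay above every day 30 library. SRSF2, whose protein marks nuclear speckles, was at 93.5, 99.4, 97.0 and 92.7 on day 30 and at 72.5, 56.5, 87.8 and 101 on day 4. The 2 days overlapped for SRSF2, with NCD38-β2PIPP on day 4 the highest of the 8. SRSF5 was at 126, 127, 126 and 121 on day 30 and at 44.1, 25.7, 55.2 and 61.6 on day 4. SRSF3, the smallest SR protein, with roles in mRNA export and 3′ end choice, was at 59.3, 71.8, 65.1 and 57.3 on day 30 and at 35.4, 19.4, 37.6 and 47.2 on day 4. For both of these genes all day 4 libraries lay below all day 30 libraries.

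SRSF1, the founding member of the family, was at 33.1, 38.2, 33.4 and 30.4 FPKM on day 30 and at 15.0, 6.60, 23.1 and 29.7 on day 4, where the NCD38-β2PIPP library came within 1 FPKM of the day 30 range. SRSF10, which represses splicing when dephosphorylated, was at 20.1, 20.6, 23.1 and 20.7 on day 30 and at 4.28, 2.70, 6.57 and 9.98 on day 4. SRSF11 was at 29.8, 34.2, 32.6 and 35.3 on day 30 and at 2.04, 1.46, 5.61 and 7.81 on day 4. Among the SR genes the gap between the days was widest for SRSF11, whose lowest day 30 value was more than 3-fold its highest day 4 value. Among the other SR genes, SRSF4 was at 35.9 to 48.0 on day 30 and 27.6 to 52.2 on day 4, SRSF6 at 49.8 to 56.8 and 10.0 to 25.1, SRSF7 at 58.7 to 67.3 and 12.7 to 30.5, and SRSF8 at 8.55 to 10.6 and 2.27 to 7.77. SRSF8 derives from a processed copy of SRSF2, and it stood at 9.23% to 11.4% of SRSF2 on day 30 and at 4.02% to 7.71% on day 4. Reads shared between the copies could have been split in the counting, so its values are uncertain.

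HNRNPA1, whose protein binds exonic silencers and opposes SRSF1, had the highest level of all members. It was at 792, 844, 847 and 698 FPKM on day 30 and at 252, 144, 310.4 and 384 on day 4. Every day 4 library lay below every day 30 library, and within day 4 the 4 libraries spread over a wider fold than within day 30. HNRNPA1L2, an intronless copy of HNRNPA1, stood at 9.28% to 9.98% of HNRNPA1 on day 30 and at 10.8% to 11.8% on day 4, a nearly constant share, and its own level is uncertain for that reason. HNRNPA3, a close relative of HNRNPA1, was at 58.9, 59.0, 69.1 and 49.1 on day 30 and at 12.4, 6.50, 18.0 and 25.4 on day 4.

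HNRNPL, HNRNPK, HNRNPC, HNRNPAB, HNRNPD and HNRNPA0 differed by a smaller fold between the days than HNRNPA1 and HNRNPA3. HNRNPL, which binds CA repeats, was at 165, 196, 165 and 166 FPKM on day 30 and at 226, 207, 227 and 212 on day 4. HNRNPK, which binds C-rich sequence through KH domains, was at 194, 235, 219.6 and 182 and then at 169, 90.7, 190.2 and 222. HNRNPC, which binds U tracts, was at 173, 194, 195 and 172 and then at 139, 96.7, 135 and 150.2. HNRNPL was higher and HNRNPC lower in all day 4 libraries, and the days overlapped for HNRNPK. HNRNPAB was at 121, 144, 139 and 129 on day 30 and at 154, 131, 156 and 164 on day 4. HNRNPD, whose protein binds AU-rich elements of unstable mRNAs, was at 83.9 to 101 on day 30 and at 61.6 to 99.5 on day 4, and HNRNPA0 was at 30.2 to 39.6 and at 33.9 to 50.1.

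The hnRNP F and H proteins bind runs of G. HNRNPF was at 150.4, 200.3, 169 and 142 FPKM on day 30 and at 131, 77.9, 164 and 197 on day 4. HNRNPH1 was at 48.1, 66.5, 55.7 and 47.3 and then at 18.4, 10.4, 32.0 and 51.0. For both genes the DMSO and NCD38 libraries of day 4 lay below all of day 30, and the NCD38-β2PIPP library of day 4 lay within the range of day 30. HNRNPH3 was at 36.6, 53.6, 40.8 and 34.6 on day 30 and at 7.79, 4.60, 13.9 and 19.3 on day 4. HNRNPH2, on the X chromosome, was at 12.1, 11.2, 10.6 and 5.08 on day 30 and at 1.46, 1.42, 6.004 and 7.44 on day 4. It was the only one of the 30 whose NCD38-β2PIPP value was at least 2-fold lower than DMSO on day 30 and at least 2-fold higher on day 4.

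HNRNPU, a nuclear matrix protein that binds RNA and chromatin, was at 65.0, 75.2, 76.8 and 62.8 FPKM on day 30 and at 26.5, 11.7, 37.4 and 51.0 on day 4. HNRNPR was at 43.7, 64.7, 52.0 and 39.0 and then at 12.5, 6.12, 24.2 and 40.3. HNRNPM was at 63.5, 99.8, 65.0 and 56.5 and then at 101, 50.5, 121 and 141. The days overlapped for HNRNPR and HNRNPM. HNRNPUL1, a relative of HNRNPU, was at 37.5, 37.4, 41.4 and 32.0 on day 30 and at 71.8, 66.6, 76.6 and 75.8 on day 4, and HNRNPUL2 was at 18.1 to 21.6 and at 5.47 to 15.7. HNRNPCL1, an almost intronless copy of HNRNPC, was at 0.158, 0.0303, 0.0953 and 0.148 on day 30 and at 2.97, 2.46, 2.94 and 2.67 on day 4. It reached a mean of at least 1 FPKM through the day 4 libraries alone, so it had to differ between the days.

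Of 8 entries with an SRSF, HNRNP or HNRP symbol outside the rule, some bear on the members. HNRNPA2B1, the close relative of HNRNPA1 whose symbol has letters and numbers in another order, was at 234, 361, 252 and 204 FPKM on day 30 and at 51.5, 27.02, 88.5 and 123 on day 4. HNRNPA1P10, listed as a pseudogene of HNRNPA1, was at 131, 140.2, 140.3 and 112 and then at 85.0, 51.0, 110.5 and 135. The readthrough entry HNRNPUL2-BSCL2 was at 0.757 to 5.55 on day 30 and at 15.0 to 24.1 on day 4, the opposite direction to HNRNPUL2, with which it shares exons. The pseudogene HNRNPA3P1 was at 0.0753 to 0.176 on day 30 and at 0.511 to 2.06 on day 4. HNRNPCL1, HNRNPUL2-BSCL2 and HNRNPA3P1 were thus higher in every day 4 library than in any day 30 library, whereas HNRNPC, HNRNPUL2 and HNRNPA3 were lower. Other copies did not share this pattern: HNRNPA1L2, like HNRNPA1, and SRSF8 were lower in every day 4 library, and the days overlapped for HNRNPA1P10. How reads were divided between overlapping or similar genes on each day was not tested.

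To ask what each inhibitor did after 4 days, each library was compared with the DMSO library of the same day as the log2 ratio of FPKM + 1, which understates the change of low genes. With 1 library a condition there was no replicate check and no test, and the 3 comparisons of a day share the DMSO library. Intervals given as ± cover counting error only, at 95%, from the estimated fragments. They were calculated for the ratio of fragments without the added 1, so for low genes they are not intervals of the printed ratio. HNRNPH2 with NCD38-β2P4 on day 4 was at 1.51 with 1 added to FPKM and at 2.03 with 0.01 added. On day 4 all 30 members were lower with NCD38 than with DMSO, 28 were higher with NCD38-β2P4 and 28 were higher with NCD38-β2PIPP. The median log2 ratio of the members was -0.64, 0.31 and 0.53, beside -0.21, 0.095 and 0.17 for all expressed genes. Over all expressed genes 67.3% were below 0 with NCD38, 65.0% above 0 with NCD38-β2P4 and 63.6% above 0 with NCD38-β2PIPP.

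With NCD38 on day 4, 2 of 30 members were at least 2-fold lower, where 4.54% of all expressed genes were, and none was 2-fold higher, where 0.874% were. HNRNPU stood lowest at -1.11 ± 0.099 and SRSF1 next at -1.07 ± 0.15. HNRNPM, at -0.99 ± 0.081, fell just short of 2-fold, and HNRNPH2, at -0.02 ± 0.56, was nearest to DMSO. The medians of the 11 SRSF genes, -0.56, and of the 19 HNRNP genes, -0.65, were close to each other.

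With NCD38-β2P4 on day 4, 2 of 30 members were at least 2-fold higher, beside 1.1% of all expressed genes, and none was 2-fold lower, beside 0.810%. HNRNPH2 was at 1.51 ± 0.42 and SRSF11 at 1.12 ± 0.29, and HNRNPR followed at 0.90 ± 0.089. HNRNPC, at -0.04 ± 0.050, and HNRNPCL1, at -0.01 ± 0.56, were the members below DMSO, both by less than the counting error.

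With NCD38-β2PIPP on day 4, 6 of 30 members were at least 2-fold higher, beside 10.3% of all expressed genes, and none was 2-fold lower, beside 0.838%. These were HNRNPH2 at 1.78 ± 0.41, HNRNPR at 1.61 ± 0.080, SRSF11 at 1.54 ± 0.27, HNRNPH1 at 1.42 ± 0.13, HNRNPH3 at 1.21 ± 0.19 and SRSF10 at 1.05 ± 0.15. HNRNPCL1, at -0.11 ± 0.57, and HNRNPL, at -0.09 ± 0.047, were below DMSO. The 3 HNRNPH genes were thus among the 6, and HNRNPF, which has the same kind of RNA-binding domain, was at 0.59 ± 0.050.

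The 4 libraries of day 4 stood in 1 order for most members: NCD38 lowest, then DMSO, then NCD38-β2P4, then NCD38-β2PIPP. This order was named after the values were seen. It held for 26 of 30 members, all 11 SRSF genes and 15 of 19 HNRNP genes, and for 44.4% of all expressed genes. HNRNPC, HNRNPCL1, HNRNPL and HNRNPUL1 departed from it. The NCD38 library was the lowest of the 4 for all 30 members and for 60.7% of expressed genes, and the NCD38-β2PIPP library was the highest for 27 members and for 54.3% of expressed genes.

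Transcript GC content moved with these ratios. The members' GENCODE transcripts had a median GC content of 42.6%, from 35.1% to 54.9%, against 49.6% for expressed genes, and of the 30 members 11 fell in the lowest 20% of expressed genes by GC content and 10 in the next 20%, with none in the highest 20%. The median transcript length was 2979 nt for members and 3022 nt for expressed genes. Across all 10088 expressed genes with a GENCODE match, Spearman's rho between GC content and the day 4 log2 ratio was 0.59 for NCD38, -0.53 for NCD38-β2P4 and -0.69 for NCD38-β2PIPP. Across the 30 members it was 0.33, -0.52 and -0.61. These points share the same libraries and genes are not independent, so no p is given. The day 4 order held for 82.0% of expressed genes in the lowest 20% by GC content and for 6.05% in the highest 20%.

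When the median of genes of similar GC content was subtracted, the members' day 4 medians became -0.17 for NCD38, 0.11 for NCD38-β2P4 and 0.13 for NCD38-β2PIPP. By this measure 24 of 30 members were below 0 with NCD38, 23 above 0 with NCD38-β2P4 and 19 above 0 with NCD38-β2PIPP. HNRNPH2 then remained at 2-fold or more with both conjugates, at 1.14 and 1.01. With NCD38-β2PIPP, HNRNPR was at 0.94, HNRNPH1 at 0.77, SRSF11 at 0.73, HNRNPH3 at 0.40 and SRSF10 at 0.38. With NCD38, HNRNPU was at -0.57 and SRSF1 at -0.74. HNRNPM, with a GC content of 53.1%, kept a log2 ratio of -0.87 with NCD38. The part of GC content in the day 4 differences was not tested beyond this subtraction.

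Set beside each other on day 4, the conjugates were above unconjugated NCD38 for all 30 members. The median difference in log2(FPKM + 1) was 1.04 for NCD38-β2P4 and 1.31 for NCD38-β2PIPP, beside 0.30 and 0.45 over all expressed genes. It ranged from 0.13 for HNRNPL to 1.82 for HNRNPR with NCD38-β2P4, and from 0.03 to 2.53 for the same genes with NCD38-β2PIPP. NCD38-β2PIPP was above NCD38-β2P4 for 27 of 30 members, by a median of 0.26 beside 0.10 over all expressed genes. With the GC subtraction these medians were 0.23, 0.25 and -0.0071.

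After 30 days the members lay close to DMSO. With NCD38, 23 of 30 were above 0, beside 59.0% of expressed genes, and the median log2 ratio was 0.18, beside 0.059 for all expressed genes. None was 2-fold higher, beside 1% of expressed genes, or 2-fold lower, beside 0.653%. HNRNPM was highest at 0.64 ± 0.068, and HNRNPCL1 lowest at -0.17 with counts too few to place it. HNRNPR at 0.55 ± 0.047, HNRNPH3 at 0.54 ± 0.093 and SRSF9 at 0.50 ± 0.080 followed HNRNPM.

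NCD38-β2P4 on day 30 gave a median of 0.15, beside 0.062 for all expressed genes, with 26 of 30 members above 0, beside 62.1% of expressed genes. No member was 2-fold higher, beside 0.506%, or lower, beside 0.497%. SRSF9 was highest at 0.27 ± 0.089 and HNRNPH2 lowest at -0.17 ± 0.20. With NCD38-β2PIPP the median was -0.054, beside -0.014 for all expressed genes, and 21 of 30 members were below 0, beside 52.8% of expressed genes. HNRNPH2, at -1.11 ± 0.21, was the 1 member at least 2-fold lower, beside 0.359% of expressed genes, and none was 2-fold higher, beside 0.810%. SRSF11 was highest at 0.24 ± 0.078. The SRSF median was 0.041 and the HNRNP median -0.086.

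Between the days the direction differed for NCD38 and for NCD38-β2PIPP. For NCD38, 23 members were above DMSO on day 30 and below it on day 4, and 7 were below it on both days. For NCD38-β2PIPP, 20 members were below DMSO on day 30 and above it on day 4. For NCD38-β2P4, 26 members lay on the same side on both days. The share of all expressed genes that changed side is not given here. Day by day, 59.0% of expressed genes were above DMSO with NCD38 on day 30 and 67.3% below it on day 4. With NCD38-β2PIPP 52.8% were below it on day 30 and 63.6% above it on day 4. With NCD38-β2P4 62.1% and 65.0% were above it. These differences rest on 1 library for each condition and were not tested. On day 30, Spearman's rho between GC content and the log2 ratio over expressed genes was nearer to 0 than on day 4 for NCD38, at -0.18, and for NCD38-β2PIPP, at -0.026, and for NCD38-β2P4 it was -0.52, close to the -0.53 of day 4.

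A test of the treatments was possible over both days together. One limma fit of log2(FPKM + 1) on treatment and day over the 8 libraries, with 3 residual degrees of freedom, gave 6 contrasts, with Benjamini-Hochberg adjustment over 10865 genes in each. None of the 30 members was called in any of the 6, and none had an unadjusted p below 0.05. The fit takes 1 effect per treatment over both days, so differences of opposite sign on the 2 days, as in 23 members with NCD38, cancel in the estimate and widen its error. Of all expressed genes 0.0368% were called for NCD38 against DMSO, 0.0184% for NCD38-β2P4 against DMSO and 0.0184% for NCD38-β2PIPP against DMSO. Between the inhibitors, 0.0092% were called for NCD38-β2P4 against NCD38, 0.0184% for NCD38-β2PIPP against NCD38 and 0.0276% for NCD38-β2PIPP against NCD38-β2P4.

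The intervals of these contrasts were wide, with a median half-width of 0.96 on the log2 scale, close to a 2-fold difference. SRSF11 with NCD38-β2PIPP differed from DMSO by 0.89 (SE 0.47, 95% interval -0.30 to 2.08, limma adjusted p = 0.98). SRSF6 differed between NCD38-β2PIPP and NCD38 by 0.71 (95% interval -0.02 to 1.45, limma adjusted p = 0.53). Between the conjugates HNRNPH2 differed by -0.33 (95% interval -2.22 to 1.55) and SRSF11 by 0.26 (95% interval -0.93 to 1.45), which does not show that the conjugates act alike.

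The comparison of the days asks how the level after 30 days differs from that after 4 days whatever the treatment. In the same limma fit each treatment gave 1 difference, and the spread over the 4 treatments gave the error. After 30 days 13 of 30 members were higher, where 30.2% of all expressed genes were, and 3 were lower, where 31.7% were. Without HNRNPCL1, which entered through its day 4 values, 2 of 29 were lower. The members' median difference was 0.90 in log2(FPKM + 1), beside -0.02 for all expressed genes. Of the SRSF genes 7 of 11 were higher and 1 was lower, and of the HNRNP genes 6 of 19 were higher and 2 were lower, HNRNPCL1 among them. In 15 members all day 30 libraries lay above all day 4 libraries, where 29.5% of expressed genes did so, and in 4 members all lay below, where 33.1% did so. Without HNRNPCL1, all lay below in 3 of 29.

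SRSF11 rose most, by 2.89 on the log2 scale (SE 0.33, limma adjusted p = 0.0015), and ranked 211 of 10865 expressed genes. On GRCh37 the gene spans chr1:70671365-70718735 on the plus strand, with 12 exons in the GENCODE transcript used. HNRNPA3 followed at 1.99 (SE 0.34, adjusted p = 0.0048), HNRNPH3 at 1.92 (SE 0.41, adjusted p = 0.010) and SRSF10 at 1.80 (SE 0.27, adjusted p = 0.0031). HNRNPA1 rose by 1.62 (SE 0.28, adjusted p = 0.0053), from a mean of 273 FPKM on day 4 to 795 on day 30. SRSF6, SRSF7 and SRSF5, all classical SR proteins, rose by 1.62, 1.57 and 1.47. The other members that passed the test upward were HNRNPA1L2, HNRNPU, SRSF3, SRSF8 and HNRNPUL2, at 0.89 to 1.32. HNRNPR, HNRNPH2, HNRNPH1 and SRSF1 had differences of 1.003 to 1.49 with wider errors and did not pass, with adjusted p of 0.052 to 0.090.

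The members that were lower on day 30 were HNRNPCL1, HNRNPUL1 and SRSF9. HNRNPUL1 differed by -0.96 (SE 0.13, limma adjusted p = 0.0025) and SRSF9 by -0.67 (SE 0.20, adjusted p = 0.031). HNRNPCL1 differed by -1.76 (SE 0.12), at levels near the floor on day 30. SRSF4 was nearest to 0 at -0.04, and HNRNPM had an interval from -1.45 to 0.51.

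GC content moved with the day difference as well. Spearman's rho between GC content and the day difference was -0.68 over 10088 expressed genes and -0.73 over the 30 members. In the 20% of expressed genes with the lowest GC content, 78.6% were higher on day 30 and 0.991% lower. In the highest 20% 5.35% were higher and 64.3% lower. After each library's trend with GC content was subtracted, 12 members were higher, where 28.5% of 10088 expressed genes were, and 6 were lower, where 27.9% were, and the members' median difference was 0.34. Without HNRNPCL1, which entered through its day 4 values, 5 of 29 were lower. SRSF11 then rose by 1.68, HNRNPUL2 by 1.38, HNRNPA1L2 by 1.09 and HNRNPA1 by 0.94, with adjusted p of 0.00073 to 0.0025. HNRNPA0 fell by 1.39, and HNRNPC, HNRNPD and HNRNPK, whose differences were above 0 before, fell by 0.60, 0.80 and 0.56. HNRNPUL1, at -0.32, stayed below 0, and SRSF9, at -0.18, no longer passed. The part of GC content in the day difference was not tested further.

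Of the 16 members called between the days, HNRNPA1, HNRNPA3, HNRNPUL1, SRSF5, SRSF6, SRSF7 and SRSF11 passed under all 16 alternative settings of the fit. SRSF9 did not pass in 9 of 16, SRSF8 in 7, HNRNPU in 6, and SRSF3 and HNRNPUL2 in 5. With a treatment reduced to 1 library, that treatment gives no day difference, so leaving out either of its libraries gives the same result. The settings that leave out a library therefore come in identical pairs and are not separate checks. The members' median day difference was then 0.90 without either DMSO library and 0.95 without either NCD38-β2P4 library. It was 0.59 without either NCD38 library and 1.13 without either NCD38-β2PIPP library. The median of all expressed genes ranged from -0.095 to 0.043 in these fits.

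Genes that act on or beside SR and hnRNP proteins were described by fixed lists. The counts are to be read beside all expressed genes, of which 30.2% were higher on day 30 and 31.7% lower. Of the kinases that phosphorylate SR proteins and their partners, 8 of 9 were expressed, and 6 of these were higher on day 30 and none lower, with a median difference of 1.11 in log2(FPKM + 1). CLK1 rose by 2.60 (SE 0.27, limma adjusted p = 0.0011), from 0.784 to 3.20 FPKM on day 4 to 13.3 to 16.8 on day 30, and CLK3 had the smallest difference, 0.04. Of 18 SR-related proteins 8 were higher and 3 lower, with a median of 0.28. LUC7L3, a component associated with U1 snRNP, rose by 3.34 and RNPS1, of the exon junction complex, fell by 0.998. Of 13 hnRNP proteins under other symbols 3 were higher and 4 lower, with a median of 0.01, and HNRPDL rose by 1.73.

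Of 30 core spliceosome genes 9 were higher, where 30.2% of all expressed genes were, and 16 lower, where 31.7% were. Their median difference was -0.48. SNRPB2, a U2 snRNP protein, rose by 2.72 and SF1, which binds the branch point, fell by 2.07. The nuclear import receptors of these proteins split, with TNPO1 at 1.001 (limma adjusted p = 0.071) and TNPO2, which fell by 0.89, and none of the 3 passed upward. Of 10 genes of nonsense-mediated decay, which degrades many SR and hnRNP transcripts, 3 were higher and 5 lower, with a median of -0.77, from UPF3B at 2.56 to SMG5 at -2.29. The genes at the ends of these lists also differed in GC content, 37.1% for SNRPB2 and 56.8% for SF1.

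On day 4 the kinases stood in the same order as the members in 5 of 8 genes, with a median log2 ratio of -0.31 for NCD38, 0.37 for NCD38-β2P4 and 0.99 for NCD38-β2PIPP, and SR-related proteins did so in 14 of 18. The order held in 7 of 13 other hnRNP genes, 10 of 30 core spliceosome genes, 2 of 3 import receptors and 7 of 10 decay genes, beside 44.4% of all expressed genes. With NCD38-β2PIPP, where 10.3% of expressed genes passed 2-fold upward and 0.838% downward, 4 of 8 kinases, 6 of 18 SR-related genes, 1 of 13 other hnRNP genes, 3 of 30 core spliceosome genes, 1 of 3 import receptors and 3 of 10 decay genes were at least 2-fold changed. The core spliceosome list had day 4 medians of -0.080, 0.11 and 0.013, over genes that lay on both sides of 0, from -0.70 to 2.01 with NCD38-β2PIPP.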

How the data were processed

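RNA expression was measured in 8 RKO libraries prepared with a stranded mRNA kit; 30 ChIP samples were not used. Per the labels, the dose was 2 µM at both times. Reads were mapped by the authors with TopHat, and the deposited table gives the FPKM that Cufflinks calculated, whereas the submitters' processing notes list HISAT2 2.2.1.0, Cufflinks and hg19; the annotation is not given in the sources used here. FPKM holds no counts. Fragments were estimated from the FPKM of genes seen with 1 fragment (lowest total 12900000), and intervals from them cover counting error only. Symbols occurring more than once (90 entries) were left out.

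Here, log2(FPKM + 1) was compared between libraries (Python 3.11.15, pandas 2.3.3, numpy 2.4.6). Genes with a mean FPKM of at least 1 were tested with limma 3.58.1 (R 4.3.3) on treatment and day, two-sided, with Benjamini-Hochberg adjustment and a threshold of 0.05. Transcript GC content and length came from GENCODE 44 on GRCh37, matched by symbol. The scripts were tested on simulated data. GC trends were subtracted as the median of 20 bins of genes for ratios, and per library before limma. The alternatives changed the pseudocount, filter, scaling, prior, GC correction, control library and the libraries included; 1 was added after seeing the data. Genes given in every library were the 4 SRSF and 6 HNRNP genes of highest mean, the 4 largest day differences each way, the extremes of each comparison and all at least 2-fold changed. The members, lists and tests were chosen with earlier results of these data known.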

Additional observations from a re-analysis of the deposited data

Results flagged for a closer look

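The direction of the members' median log2 ratio to DMSO differed between the days for 2 of the 3 inhibitors. With NCD38 it was 0.18 on day 30 and -0.64 on day 4. With NCD38-β2PIPP it was -0.054 on day 30 and 0.53 on day 4. The medians of all expressed genes had the same signs, 0.059 and -0.21 with NCD38 and -0.014 and 0.17 with NCD38-β2PIPP. Each value rests on 1 library against 1 library, and the difference was not tested. Subtracting the median of genes of similar GC content gave 0.063 and -0.17 for NCD38 and -0.046 and 0.13 for NCD38-β2PIPP, the same signs.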

How the results depend on the processing

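Depth, the lack of replicates and the confounding of day with library set the limits here: low members such as HNRNPCL1, HNRNPH2 and SRSF11 have the widest counting intervals. Of the main results 142 of 176 recomputed values were classed as the same as the main setting, as were 462 of 591 for single genes. The 142 include the treatment contrasts, which called 0 members throughout. That class did not require the same sign or count. HNRNPH2 with NCD38 on day 4 went from -0.02 to 0.52 with the GC trend subtracted. Members higher on day 30 went from 13 to 9 with no filter on low values, where 3778 of 17976 genes were higher. Rescaling by the median ratio gave members' medians of 0.11 for NCD38 on day 30 and of -0.30 for NCD38, 0.19 for NCD38-β2P4 and 0.32 for NCD38-β2PIPP on day 4, with 0 members at least 2-fold changed for NCD38. Subtracting the GC trend gave 0.063 for NCD38 and -0.018 for NCD38-β2P4 on day 30, and -0.17, 0.11 and 0.13 on day 4, with 0, 1 and 1 members at least 2-fold changed. At 1.5-fold, 1 member was changed for NCD38 on day 30, and 16, 6 and 15 on day 4. Shares of all expressed genes are not given beside the fold counts of these alternative settings. Those counts are therefore not read as a trait of the members. With the other day's DMSO library as control, medians were 0.95, 0.97 and 0.72 on day 30 and -1.73, -0.61 and -0.18 on day 4, and 2-fold counts were 16, 16 and 15 on day 30 and 19 for NCD38 and 12 for NCD38-β2P4 on day 4. That control turned HNRNPH2 to 1.31 with NCD38-β2PIPP on day 30, HNRNPH2 to -0.91 and SRSF11 to -2.22 with NCD38-β2P4 on day 4, and HNRNPH2 to -0.64, HNRNPH3 to -0.89, HNRNPR to -0.12, SRSF10 to -0.94 and SRSF11 to -1.81 with NCD38-β2PIPP on day 4, since it holds the difference between the days. Between the days, 5 members were lower when libraries were shifted to the same median, where 3728 of 10865 expressed genes were. With the GC trend subtracted 6 were lower, where 27.9% of expressed genes were, and 5 of 29 without HNRNPCL1. That subtraction turned HNRNPAB to 0.42, HNRNPC to -0.60, HNRNPD to -0.80, HNRNPK to -0.56 and SRSF3 to -0.30. Leaving out each library gave 7 to 18 members higher on day 30 and 2 to 6 lower. The treatment contrasts called 0 members under every alternative run.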
